A study of Mus musculus with 10 samples.

Results

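Genes of arginine, tryptophan and cystine metabolism were examined in melanomas grown in Siah2 WT and Siah2 KO mice. They were *Nos2*, *Arg1*, *Arg2*, *Ido1*, *Tdo2* and *Slc7a11*, 6 of the 770 genes measured, and they were chosen on their measured values in this same comparison of genotypes. Their differences between the genotypes are therefore given as a description without a test, and support nothing beyond it. All 6 symbols were found in the data.

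Inducible nitric oxide synthase, encoded by *Nos2*, turns arginine into nitric oxide and citrulline, and it is the textbook marker of macrophages activated by interferon gamma and bacterial products. The arginases split the same amino acid into ornithine and urea, and *Arg1* is widely used as a marker of alternatively activated macrophages and of suppressive myeloid cells in tumors. *Ido1* and *Tdo2* encode enzymes that open the degradation of tryptophan to kynurenine, which restrains T cells, whereas *Slc7a11* encodes the transport subunit of the cystine and glutamate exchanger that supplies cysteine for glutathione.

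YUMMER1.7, an immunogenic mouse melanoma line, was injected into *Siah2* WT or *Siah2*-/- animals, which lack a ubiquitin ligase gene. The host, and not the injected cells, carried the deletion, and both groups received the same line and no drug. Tumors were taken on day 11 according to the sample labels, and 100 ng of RNA from each was hybridized to a NanoString immune panel for mouse, which counts fluorescent barcodes bound to single transcripts. There were 5 WT tumors, here WT2 to WT6, and 5 KO tumors, here KO1, KO2, KO3, KO5 and KO6. The text describing the series as a whole names Yumm1.5 cells, Rnf5-/- mice and day 10, all of which go against the labels of the 10 samples. For the day, the paper's legend of its NanoString experiment also gives 10 days after injection, so day 10 or day 11 remains unsettled. The labels state neither the age nor the litter of the mice, and p-values measure the spread between these 10 tumors. Because whole tumors were measured, more cells of one type and more RNA per cell cannot be told apart.

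The values are normalized counts, scaled by the authors to 20 reference genes in each tumor. Before that scaling, the WT tumors had 443458 to 578703 counts summed over the 770 genes and the KO tumors 382860 to 581636. The scaling factor ran from 0.918 to 1.32 in the WT group and from 1.03 to 1.60 in the KO group. The median log2 difference over all genes, KO minus WT, was 0.24, and positive control scaling gave 0.08. The panel holds no probe for *Siah2*, so the deletion could not be checked. The highest of 8 negative control probes, multiplied by the factor of its tumor, ran from 2.31 to 8.92 in the WT group and from 4.11 to 15.8 in the KO group, and it serves below as the level of background. Of 3 genes associated with melanoma cells, *S100b* exceeded it in only 4 of the 10 tumors, all of them WT, and its highest KO value was 2.51. Its log2 difference was -2.39 (adjusted p = 0.00055 from limma), from levels near background. *Cspg4* was lower in KO tumors, with a log2 difference of -0.87 (adjusted p = 0.0089 from limma), and *Mcam* did not pass (-0.17, adjusted p = 0.36).

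*Slc7a11* is shown first with its promoter, because its control region was the one at hand for a gene whose groups did not overlap. RefSeq places the gene at chr3:50364936-50499087 in GRCm38.p6. The start site of the promoter table lies inside that span, 55474 bases from the end where a minus strand gene begins, so it is not the outermost start of the gene, and which start these tumors used was not measured. The 250 bases before it, chr3:50443614-50443863 on the minus strand, are written 5′ to 3′, with capitals marking the motif matches found on either strand.

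Slc7a11 promoter: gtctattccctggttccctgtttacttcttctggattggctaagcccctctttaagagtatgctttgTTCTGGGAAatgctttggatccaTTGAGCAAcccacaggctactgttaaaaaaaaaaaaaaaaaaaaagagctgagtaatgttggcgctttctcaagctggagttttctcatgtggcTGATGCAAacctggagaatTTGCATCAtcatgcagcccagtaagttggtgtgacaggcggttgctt

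From left to right, the capitals are a gamma-activated site (GAS, TTCNNNGAA) at -183 to -175, a C/EBP motif (TTGCNNAA, read on the opposite strand) at -160 to -153, and a pair of C/EBP-ATF composite elements (TGATGNAA) at -66 to -59 and, on the opposite strand, at -47 to -40. Positions count back from the start site. GAS was present in 7.02% of 32851 mouse promoters of this length, the C/EBP motif in 9.56% and the composite element in 3.45%, while 2 or more composite elements were present in 0.0396%. The composite element is known as the amino acid response element, bound by ATF4 when amino acids run short. The search also covered the STAT6 motif (TTCNNNNGAA), ISRE (GAAANNGAA), NF-kB, AP-1 (TGANTCA), the antioxidant response element (TGACNNNGC) and TATAAA, none of which matched in this window. A match describes letters only, and binding was not measured.

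In WT tumors, *Slc7a11* stood at 50.2 normalized counts in WT2, 55.9 in WT3, 38.9 in WT4, 63.1 in WT5 and 56.8 in WT6. In KO tumors it stood at 177 in KO1, 175 in KO2, 249 in KO3, 140 in KO5 and 74.7 in KO6. Every KO tumor was above every WT tumor, KO6 was the lowest of its group and nearest to WT, and all 10 tumors exceeded their background. The means were 163 ± 63.3 (SD, n = 5) in KO and 53.0 ± 9.10 (SD, n = 5) in WT tumors, a ratio of 3.08 and a log2 difference of 1.52 (standard error 0.28), which was the 34th largest of the 770.

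*Nos2* had the largest positive log2 difference of the 770 genes. Its normalized count was 9.93 in WT2, 9.13 in WT3, 12.3 in WT4, 20.8 in WT5 and 4.72 in WT6. It was 167 in KO1, 167 in KO2, 405 in KO3, 280 in KO5 and 80.9 in KO6. The groups did not overlap, and the lowest KO tumor was well above the highest WT tumor. In WT tumors the transcript was close to background, and in WT6 it exceeded the highest negative control, 4.71, by a margin too small to read. The means were 220 ± 125 (SD, n = 5) in KO and 11.4 ± 5.94 (SD, n = 5) in WT tumors, with a ratio of 19.4 and a log2 difference of 4.09 (standard error 0.45). Since the WT level is low, the difference depended on how low values were treated, and it was 3.29 with a pseudocount of 10 and 3.19 with values under 20 raised to 20.

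*Arg1*, the cytosolic arginase, was high in both genotypes. Its normalized count was 628 in WT2, 1025 in WT3, 702 in WT4, 1353 in WT5 and 234 in WT6, against 2627 in KO1, 4871 in KO2, 4506 in KO3, 3490 in KO5 and 900 in KO6. The groups overlapped, since KO6 lay inside the WT range while the other 4 KO tumors were above all WT tumors. The means were 3279 ± 1594 (SD, n = 5) in KO and 788 ± 423 (SD, n = 5) in WT tumors, a ratio of 4.16 and a log2 difference of 2.06 (standard error 0.55). Leaving out WT6 lowered the difference to 1.68, and leaving out KO6 raised it to 2.47.

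*Arg2*, the mitochondrial arginase, was much closer to background. It stood at 4.18 in WT2, 4.26 in WT3, 13.2 in WT4, 12.9 in WT5 and 9.54 in WT6, and at 15.3 in KO1, 31.3 in KO2, 68.2 in KO3, 39.5 in KO5 and 14.0 in KO6. The groups did not overlap, but KO6 and KO1 were barely above WT4, and WT2 was under the background of its tumor. The means were 33.7 ± 22.1 (SD, n = 5) and 8.81 ± 4.43 (SD, n = 5), with a log2 difference of 1.72 (standard error 0.47) that went to 0.66 when values under 20 were raised to 20.

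The tryptophan enzymes were at or near background throughout. *Ido1*, the enzyme induced by interferon gamma, stood at 3.23 in WT2, 7.18 in WT3, 4.93 in WT4, 8.93 in WT5 and 6.65 in WT6, and at 17.5 in KO1, 8.92 in KO2, 16.4 in KO3, 11.4 in KO5 and 14.0 in KO6. The groups overlapped only between KO2 and WT5, yet 1 WT tumor and 1 KO tumor were under their background and no value reached 20. The means were 13.6 ± 3.54 (SD, n = 5) and 6.18 ± 2.18 (SD, n = 5), with a log2 difference of 1.05 (standard error 0.25), which was 0.54 with a pseudocount of 10 and 0 with values under 20 raised to 20.

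*Tdo2*, whose product is best known from the liver, never exceeded the background of its tumor. It stood at 3.23 in WT2, 1 in WT3 and WT4, 3.65 in WT5 and 1.83 in WT6, and at 1.11 in KO1, 2.52 in KO2, 1.26 in KO3, 1.48 in KO5 and 1.03 in KO6. In 2 WT and 4 KO tumors it was at the lowest value of the tumor, and no fold is given.

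**Figure D1:**
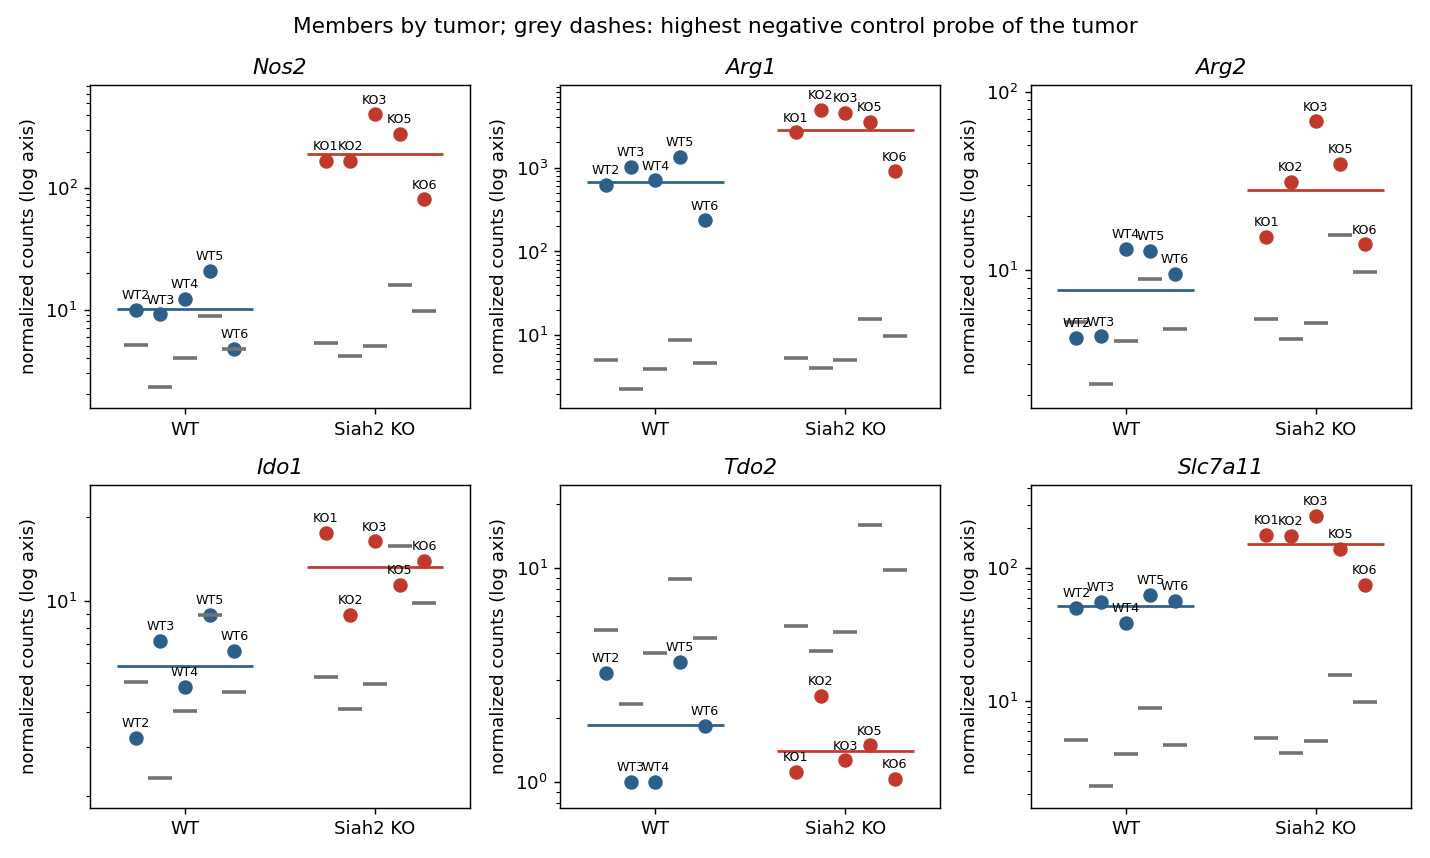
Normalized counts (log axis) of the 6 genes in each tumor, WT in blue and Siah2 KO in red; horizontal lines are geometric means of 5 tumors and grey dashes the highest negative control probe of the tumor. *Nos2*, *Arg2* and *Slc7a11* do not overlap between the groups, *Arg1* overlaps through KO6, *Ido1* through KO2, and *Tdo2* lies under the dash in all 10 tumors.

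Of the 6 genes, 3 (*Nos2*, *Arg2* and *Slc7a11*) were thus higher in KO tumors without overlap. The same held for 24.5% of all 770 genes, and because the genes were chosen on this contrast nothing is read from their count. Apart from *Tdo2*, the genes had a positive difference under each of the 3 other scalings, though *Arg2* and *Ido1* did not exceed background in every tumor. Scaled to a common median, the log2 difference was 3.84 for *Nos2*, 1.79 for *Arg1*, 1.48 for *Arg2*, 1.26 for *Slc7a11* and 0.82 for *Ido1*. Scaled to the positive control probes, it was 3.91, 1.90, 1.53, 1.36 and 0.89 in the same order.

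Leukocyte genes moved with these differences. Of 7 genes found in all leukocytes, 6 were higher in KO tumors, including *Itgb2*, which encodes an integrin subunit (log2 difference 1.16, adjusted p = 0.0011 from limma), and *Ptprc*, which encodes CD45 (0.78, adjusted p = 0.0020). The summed level of the list ranged from 4070 to 4912 in WT and from 6083 to 9081 in KO tumors. Across all genes, 31.3% were called higher and 9.74% lower at an adjusted p under 0.05. Of 10 macrophage genes, 4 were higher and none lower, *Msr1* (0.92) and *Cd68* (0.87) most, and their summed level ranged from 26196 to 35066 in WT and from 30926 to 52355 in KO tumors. Of 10 neutrophil genes, *Trem1* (1.24) and *Csf3r* (0.95) were higher. These 2, *S100a8* and *Lcn2* exceeded background in all 10 tumors and *Cxcr2* in 9, whereas *Elane* and *Ltf* did in 0 of 10. The sum of the list overlapped, between 475 and 770 in WT and between 355 and 1427 in KO tumors. Without KO6, 4 neutrophil genes were called. All 3 NK cell genes and 5 of 6 T cell genes were higher, while the remaining T cell gene, *Cd4*, was called lower under median scaling and under quantile normalization. In contrast, all 4 fibroblast genes were lower. Under positive control scaling the counts fell to 2 of 7 for leukocytes and 0 of 10 for macrophages.

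To set the 6 genes against this shift, the median log2 level of each list was subtracted in every tumor. Relative to macrophage genes, whose own median differed by 0.51, the log2 difference between KO and WT was 3.58 for *Nos2*, 1.55 for *Arg1*, 1.21 for *Arg2*, 1.01 for *Slc7a11* and 0.54 for *Ido1*. Relative to leukocyte genes it was 3.51, 1.48, 1.14, 0.94 and 0.47 in the same order. The groups of *Nos2* did not overlap against either list. Those of *Slc7a11* were apart by only 0.026 against macrophage genes and overlapped against leukocyte genes. The groups of *Arg1*, *Arg2* and *Ido1* overlapped against both lists. No such value is given for neutrophil genes, since 5 of the 10 exceeded background in 3 tumors or fewer. The source of each transcript was not measured, and the part of cell numbers in the differences was not tested.

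**Figure D2:**
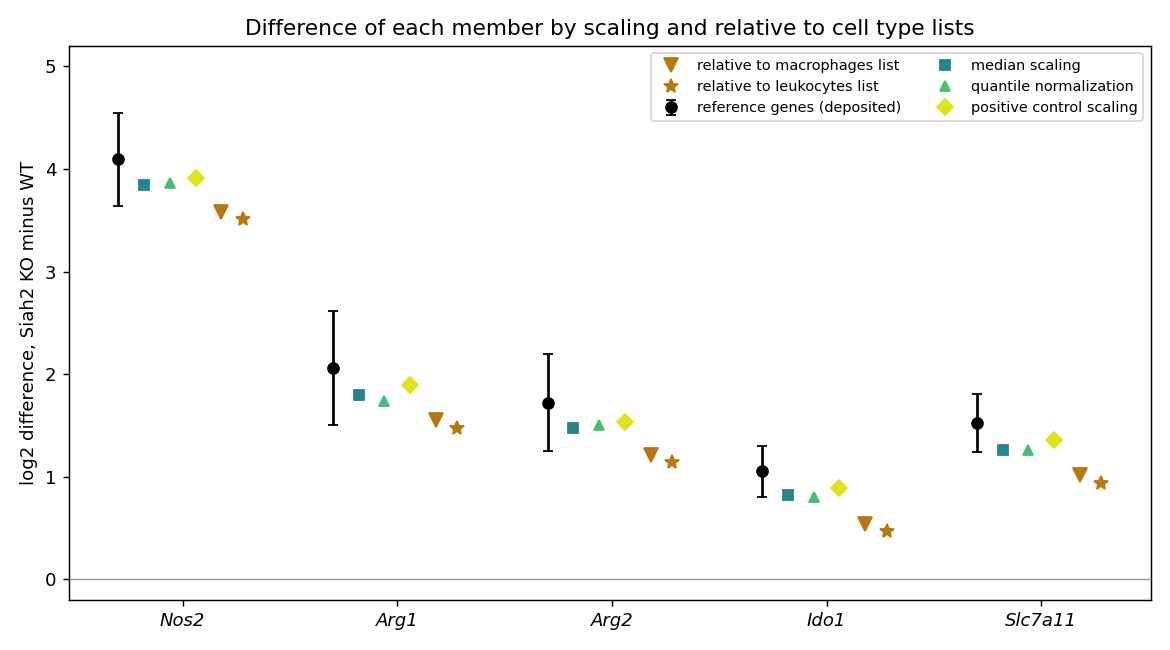
Log2 difference, Siah2 KO minus WT, for 5 genes under the deposited scaling (black, bars are 1 standard error) and 3 other scalings, and relative to the median of 2 cell type lists (brown). *Nos2* stays between 3.51 and 4.09 in all 6 versions shown, while *Ido1* goes from 1.05 to 0.47 against leukocyte genes.

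Transcripts of both kinds of enzyme that consume arginine were thus more abundant in KO tumors, and the ratio between them differed as well. Within a tumor, log2 *Nos2* minus log2 *Arg1* was -5.85 in WT2, -6.66 in WT3, -5.73 in WT4, -5.96 in WT5 and -5.36 in WT6. It was -3.96 in KO1, -4.85 in KO2, -3.47 in KO3, -3.63 in KO5 and -3.46 in KO6. All KO tumors were above all WT tumors, including KO6, in which both transcripts were low. The mean was -3.88 ± 0.58 (SD, n = 5) in KO and -5.91 ± 0.48 (SD, n = 5) in WT tumors, a difference of 2.03. That separation depended on the low *Nos2* values of WT tumors: with values under 20 raised to 20 the difference was 1.13 and only 2 of 5 KO tumors exceeded WT6, which was then the highest WT tumor, and with a pseudocount of 10 it was 1.25 and 4 of 5 were. Probes differ in efficiency, so the value compares tumors and does not say which enzyme was more abundant.

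**Figure D3:**
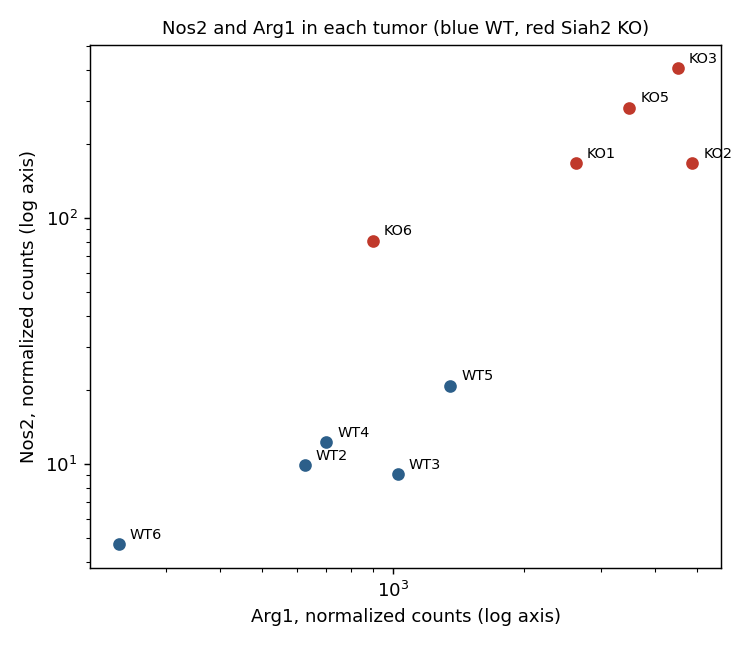
*Nos2* against *Arg1* in normalized counts (both axes logarithmic) in 5 WT tumors (blue) and 5 Siah2 KO tumors (red). KO6 falls within the WT range of *Arg1* but above all WT tumors for *Nos2*.

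Tumors of one genotype differed widely, and several of the genes varied together. After the mean of each group was removed from the log2 values, *Nos2* and *Arg1* had a Pearson r of 0.84 and a Spearman rho of 0.68 over 10 tumors, with r of 0.81 within KO and 0.88 within WT tumors. Without KO3 and KO6, the tumors farthest from the median of *Nos2*, r was 0.76. For *Nos2* and *Slc7a11* r was 0.61, but it was -0.14 without the same tumors, so the relation rests on them. *Ido1* stood apart, with r of 0.16 with *Nos2* and 0.02 with *Arg1*. KO6 had the lowest level of its group for *Nos2*, *Arg1*, *Arg2* and *Slc7a11*. It also had the lowest neutrophil sum of all tumors, 355, and the lowest macrophage sum among KO tumors, 30926. Its low values were not limited to the neutrophil and macrophage lists. Summed over all genes, normalized counts were 575773 in KO6 and 612756 to 741789 in the other KO tumors. The T cell sum (681) and NK cell sum (788) of KO6 were also the lowest among KO tumors. Not every list followed, and the leukocyte sum was 6110 in KO6 against 6083 in KO2. Such sums weigh abundant genes most, as *Lyz2* (mean 15137 over all tumors) and *Lcn2* (387), neither called between the genotypes. Cell numbers were not measured in these 10 tumors. WT6 had the lowest and WT5 the highest *Nos2* and *Arg1* of the WT tumors. The tumors share their libraries and scaling factors across genes, and these values describe 10 tumors only.

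**Figure D4:**
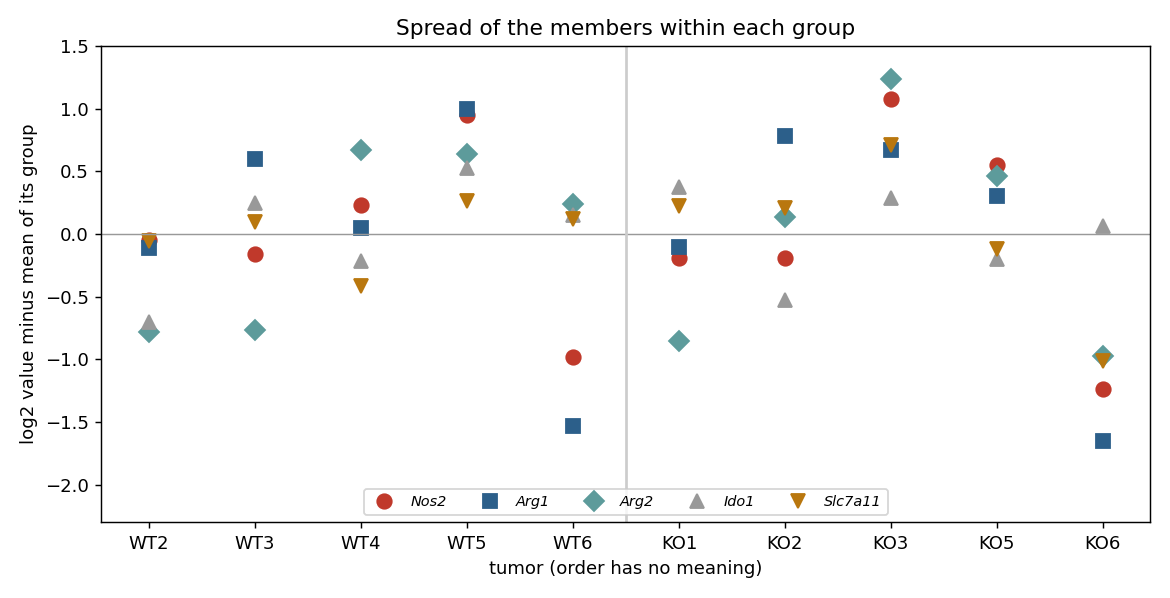
Deviation of each gene from the mean of its group on the log2 scale, by tumor. *Nos2* and *Arg1* lie together at the bottom in WT6 (-0.98 and -1.53) and KO6 (-1.23 and -1.65), whereas *Ido1* stays near 0 there (0.15 and 0.07).

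The genes whose spread within groups was most like that of *Nos2*, among 581 genes with a mean of at least 20, were *Il4ra* (r = 0.90), the receptor chain shared by IL-4 and IL-13, the chemokine gene *Cx3cl1* (0.90) and the autophagy gene *Atg5* (0.88). For *Arg1* they were *Ccl8* (0.90), *Masp1* (0.89) and *Fcgr2b* (0.87), an inhibitory antibody receptor, and for *Slc7a11* they were the complement gene *C4b* (0.91), *Map3k5* (0.90) and *H2-M3* (0.90). Spearman rho was lower for the genes like *Arg1*, at 0.62 for *Ccl8*, 0.72 for *Masp1* and 0.79 for *Fcgr2b*. It lay between 0.79 and 0.96 for the genes like *Nos2* and *Slc7a11*. Of these 9 genes *H2-M3* passed the test between the genotypes (log2 difference 0.69, adjusted p = 0.0019 from limma), and *C4b* (0.56, adjusted p = 0.066) and *Map3k5* (-0.28, adjusted p = 0.070) did not. They were the highest of 581 correlations over 10 tumors each and are given as a description.

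The cytokines that induce *Nos2* were among the genes that were higher in KO tumors. Interferon gamma, tumor necrosis factor and interleukin 1 act on macrophages through factors that include IRF1 and NF-kB. Of 6 inducing cytokine genes 4 were higher and none lower, with a median log2 difference of 1.36 against 0.24 over all genes. For this list and those below, the share over all genes was 31.3% higher and 9.74% lower. *Ifng*, made by T and NK cells, stood at 16.6, 10.1, 13.2, 11.6 and 6.65 normalized counts in WT2 to WT6 and at 51.9, 29.7, 77.0, 61.6 and 25.3 in KO1, KO2, KO3, KO5 and KO6. KO6 was again the lowest KO tumor, and the groups did not overlap. The log2 difference of *Ifng* was 1.92 (standard error 0.33, adjusted p = 0.0015 from limma).

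*Tnf* stood at 44.4, 37.4, 38.9, 51.2 and 52.9 in the WT tumors and at 124, 85.7, 145, 175 and 135 in the KO tumors, in the same order, without overlap (log2 difference 1.52, adjusted p = 0.00030). *Il1b*, at 290 ± 66.8 (SD, n = 5) in WT and 824 ± 183 (SD, n = 5) in KO tumors, did not overlap either, and its log2 difference was 1.51 (adjusted p = 0.00057, limma). *Il1a* was lower in level, at 8.42 ± 2.86 (SD, n = 5) and 22.3 ± 12.1 (SD, n = 5), and overlapped (1.21, adjusted p = 0.021, limma). It passed in 15 of 21 alternative settings, whereas *Ifng*, *Tnf* and *Il1b* passed in 22 of 22. *Ifnb1*, at or near background, had a log2 difference of 1.10 (adjusted p = 0.082) and *Lta*, a relative of *Tnf*, one of 0.06 (adjusted p = 0.92).

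The receptors and adaptors for these signals did not follow them as a group. Of 13, 4 were higher and 2 lower, with a median log2 difference of 0.27. The share that was higher was near the 31.3% of all genes. The lipopolysaccharide co-receptor *Cd14* was higher by 0.73 (adjusted p = 0.0048 from limma) and the interleukin 1 receptor accessory chain *Il1rap* by 0.41 (adjusted p = 0.0079), although *Il1rap* changed sign under quantile normalization. *Il1r1*, the signalling receptor for interleukin 1, was lower by a log2 difference of -0.67 (adjusted p = 0.00085), at 495 ± 52.2 (SD, n = 5) in KO and 787 ± 66.5 (SD, n = 5) in WT tumors. The balance turned to 1 higher and 2 lower under median scaling and to 1 higher and 3 lower under quantile normalization, and no receptor or adaptor passed under positive control scaling.

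Of 10 transcription factors and kinases that carry the signal to *Nos2*, 5 were higher and none lower, beside 31.3% and 9.74% of all genes. *Cebpb*, which encodes C/EBP beta, went from 495 ± 35.2 (SD, n = 5) in WT to 1102 ± 317 (SD, n = 5) in KO tumors (log2 difference 1.11, adjusted p = 0.0011 from limma) and passed in all 22 alternative settings. *Irf1* was higher by 0.91 (adjusted p = 0.0053). The NF-kB genes *Nfkb1* (0.15, adjusted p = 0.19), *Rela* (0.08, adjusted p = 0.60) and *Rel* (0.16, adjusted p = 0.34) did not pass, and neither did *Jak1* and *Jak2*. The sign of these 5 changed under median scaling and under quantile normalization. Under positive control scaling 1 of the 10 passed, and under quantile normalization 5 were higher and 3 lower.

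Targets of interferon gamma were higher as well, in 11 of 13 genes, with a median log2 difference of 0.82. The guanylate binding protein genes *Gbp2b* and *Gbp5* were higher by 2.46 (adjusted p = 0.00039 from limma) and 0.999 (adjusted p = 0.012), and *Cd274*, which encodes the checkpoint ligand PD-L1, by 2.05 (adjusted p = 0.00039). *Cd274* stood at 2047 ± 811 (SD, n = 5) in KO and 471 ± 81.8 (SD, n = 5) in WT tumors. *Cxcl10* (0.58, adjusted p = 0.13) and *Ciita* (0.21, adjusted p = 0.46), the master regulator of MHC class II, did not pass. *Ido1*, itself a target of this pathway, stayed under 20 in every tumor. Under positive control scaling 2 of the 13 passed, and *Irf1* is counted here and among the factors.

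Genes of the signals that induce *Arg1* were examined too. Signalling was not measured, and the part of these signals, or of those that induce *Nos2*, in the differences was not tested. Of 15 genes of the *Arg1* axis 5 were higher and none lower, with a median log2 difference of 0.31, close to the 0.24 of all genes. The share that was higher was also near the 31.3% of all genes. *Il4* and *Il13*, the classical inducers, were near background, at 3.03 ± 2.35 (SD, n = 5) and 8.32 ± 5.88 (SD, n = 5) in KO tumors and 5.89 ± 3.83 (SD, n = 5) and 4.63 ± 2.72 (SD, n = 5) in WT tumors, and neither passed (adjusted p = 0.22 and 0.36, limma). Their shared receptor chain *Il4ra* had a log2 difference of 0.00 and *Stat6*, which carries their signal, one of 0.18 (adjusted p = 0.059). The decoy receptor *Il13ra2* was higher by 1.37 (adjusted p = 0.029) and the receptor chain *Il13ra1* by 0.59 (adjusted p = 0.0049). *Cebpb*, which also acts on the *Arg1* enhancer, is on this list too. Under quantile normalization 2 were higher and 3 lower. The count was not stable, since it lay between 2 and 5 when single tumors were left out, at 3 without KO1, KO5, WT2, WT5 or WT6 and at 2 without KO3 or WT4.

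Other genes of alternatively activated macrophages did not share the direction of *Arg1* as a group. Of 10, 2 were higher and 4 lower, with a median log2 difference of -0.64. The chemokine gene *Ccl17* was lower by a log2 difference of -3.46 (adjusted p = 0.0051 from limma), at 9.85 ± 10.7 (SD, n = 5) in KO and 80.9 ± 53.7 (SD, n = 5) in WT tumors. The scavenger receptor *Cd163* was lower by -1.86 (adjusted p = 0.00082), and *Ccl22* and the mannose receptor *Mrc1* were lower too, by -1.37 and -0.89. *Cd36*, a fatty acid transporter, was higher by 1.59 (adjusted p = 0.0023), as was the scavenger receptor *Msr1* by 0.92, which also stands on the macrophage list. *Ccl17*, *Cd163*, *Ccl22* and *Cd36* passed in all 22 alternative settings. The paper places *Ccl17* and *Ccl22* transcripts in dendritic cell clusters of its single-cell data, so these 2 need not speak of macrophages. Apart from them, *Cd163* and *Mrc1* were lower and *Cd36* and *Msr1* higher, and the median of -0.64 includes *Ccl17* and *Ccl22*. Among the genes that did not pass, *Chil3* had a log2 difference of 0.79 (adjusted p = 0.10 from limma), against -1.10 for *Ccl24* and -0.40 for *Egr2*. Which cells held the transcripts was not measured here.

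Of 4 enzymes and subunits that make other inflammatory mediators, 3 were higher, with a median log2 difference of 0.85. *Ptgs2*, the inducible cyclooxygenase of prostaglandin synthesis, went from 195 ± 35.9 (SD, n = 5) in WT to 1003 ± 462 (SD, n = 5) in KO tumors, a log2 difference of 2.28 (adjusted p = 0.00022 from limma). The NADPH oxidase subunits *Cybb* and *Ncf4*, which supply superoxide, were higher by 0.91 (adjusted p = 0.0046) and 0.45 (adjusted p = 0.016). *Mpo*, the granule peroxidase of neutrophils, exceeded background in 3 of 10 tumors and did not pass (adjusted p = 0.12).

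Of 7 genes related to *Slc7a11* through cystine uptake, iron or hypoxia, 4 were higher and none lower, beside 31.3% and 9.74% of all genes. Their median log2 difference was 0.52. The transferrin receptor *Tfrc* was higher by 0.75 (adjusted p = 0.0012 from limma), *Vegfa* by 0.68 (adjusted p = 0.0053) and *Hif1a*, the hypoxia factor that also acts on *Nos2*, by 0.63 (adjusted p = 0.0018). *Cd44*, whose protein holds the transporter at the membrane, had a log2 difference of -0.36 (adjusted p = 0.36), and *Trp53*, a repressor of *Slc7a11*, one of -0.13 (adjusted p = 0.27). Under median scaling and under quantile normalization 2 were higher and 1 lower, and none of the 7 passed under positive control scaling.

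**Figure D5:**
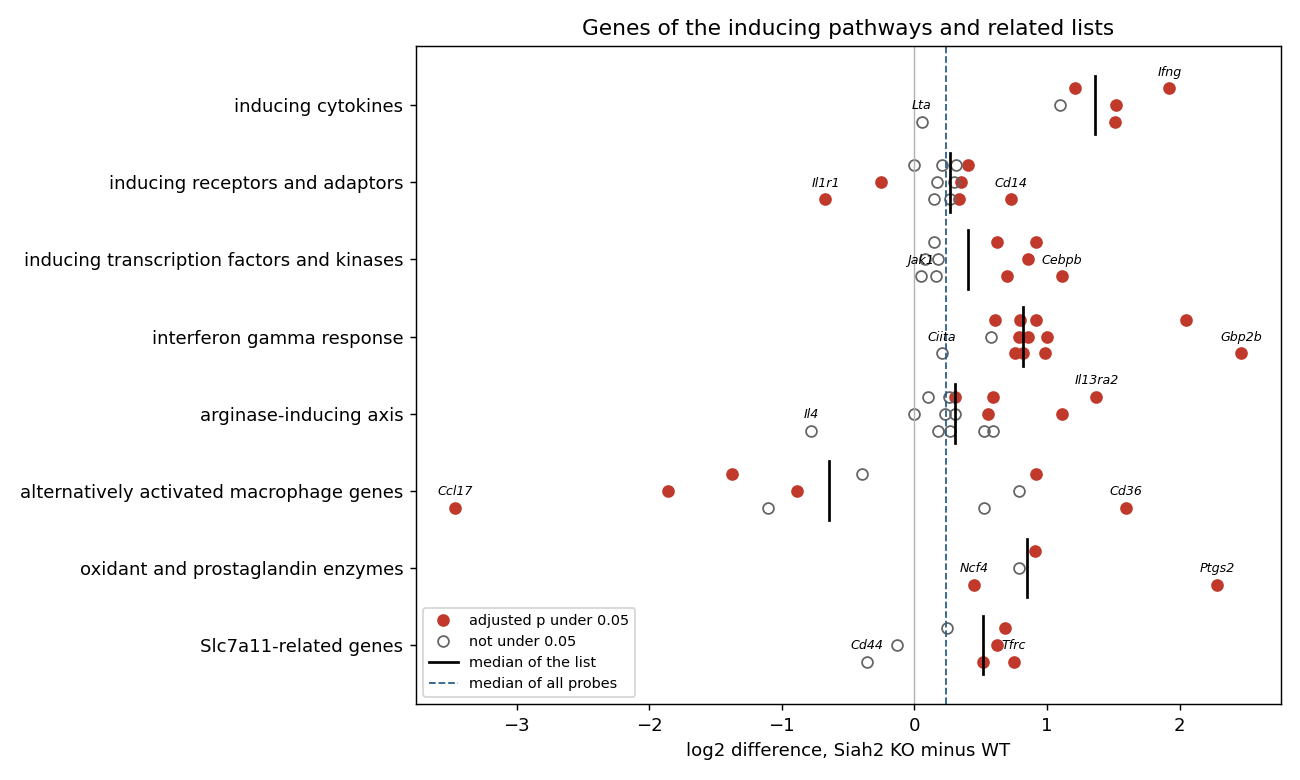
Log2 difference, Siah2 KO minus WT, for each gene of 8 lists; filled points passed at an adjusted p under 0.05 (limma), black bars are list medians and the dashed line is the median of all 770 genes, 0.24. Inducing cytokines lie to the right of the line apart from *Lta*, and alternatively activated macrophage genes spread to both sides, from *Ccl17* at -3.46 to *Cd36* at 1.59.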

How the data were processed

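Per the labels, RNA of 5 WT and 5 Siah2 KO tumors was hybridized to 784 NanoString probes (770 genes, 6 positive and 8 negative controls). The deposited signal of each probe is a normalized count, which the authors made with nSolver 2.0 by scaling to 20 reference genes after leaving out samples with outlying positive controls. The low values also show a constant subtracted from each count and results below 1 set to 1. The tumor's factor was recovered from the equal steps of low values, of which 100% lay within 0.1 of a step. The depth of each tumor is the summed count given in the report, and with 5 tumors a group their number limits the precision.

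From log2(value + 1) the groups were compared across all 770 genes by the two-sided moderated test of limma (version 3.58.1, functions lmFit and eBayes, run in R 4.3.3), with Benjamini-Hochberg adjustment. Differences are on that scale, which understates the change of low genes. A gene passed at an adjusted p under 0.05. The steps were tested on simulated data. Alternatives were median, quantile and positive control scaling, a pseudocount of 10, values under 20 raised to 20, a mean of at least 20, endogenous genes only, the methods' equal variance test, an intensity trend, the replicate number as a block, and each tumor left out. Raising values to the highest negative control, and the 8 tumors of the block without a block, were chosen after seeing the data.

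1 gene that the naming rule picked is not reported here by name. The members and the lists were chosen with earlier results of these data known. Named are the 6 members, all inducing cytokines, the 3 passing genes with the largest change and a mean of at least 20 of each list discussed, and the 3 genes most like *Nos2*, *Arg1* and *Slc7a11*; others named beside them, such as *S100b*, *Cd4*, *Il4*, *Il13*, *Stat6*, *Mrc1*, *Ccl22*, *Cxcl10*, *Ciita*, *Cd44*, *Trp53*, *Elane*, *Ltf* and *Mpo*, were chosen after their values were seen. B cell, mast cell, dendritic cell and endothelial lists had 1 of 4, 1 of 4, 1 of 5 and 3 of 7 genes called. The mast cell gene was lower, as were 2 of the endothelial genes. Promoters and coordinates are from RefSeq on GRCm38.p6, where all 6 symbols matched a gene and 2 a promoter; that of *Tdo2* is not shown. Figures were drawn in matplotlib 3.10.9 under Python 3.11.15.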

Additional observations from a re-analysis of the deposited data

Results flagged for a closer look

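Among 124 groups of 5 tumors, made of the named genes in each genotype, 2 had 1 tumor far from the other 4, where chance marks about 1 in 20 groups. *Cd36* stood at 42.3 in WT3, against 59.1 to 62.7 in the other WT tumors. *Pecam1*, the only 1 of 7 endothelial genes called higher in KO tumors, stood at 238 in KO6, against 310 to 330 in the other KO tumors. Of those 7 genes 2 were called lower, and the list had a median log2 difference of -0.31. None of the 6 metabolic genes had such a tumor.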

How the results depend on the processing

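*Arg1* and *Slc7a11* moved by less than 1 SD under the alternatives run, with log2 differences of 1.74 to 2.10 and 1.26 to 1.52, or 1.68 to 2.47 and 1.34 to 1.78 with single tumors left out. *Nos2* went to 3.29 and *Ido1* to 0.54 with a pseudocount of 10, and with values under 20 raised to 20 *Nos2* went to 3.19, *Arg2* to 0.66 and *Ido1* to 0, since both settings compress low values. With single tumors left out, *Nos2* lay between 3.82 and 4.40, *Arg2* between 1.41 and 1.97 and *Ido1* between 0.87 and 1.18. The difference in log2 *Nos2* minus log2 *Arg1* went from 2.03 to 1.25 with a pseudocount of 10 and to 1.13 with values raised to 20, settings chosen for it after seeing the data, and lay between 1.85 and 2.28 with single tumors left out. For *Tdo2* no difference is given, a choice made after its values were seen. Its sign was negative in 17 of 19 alternatives, 0 in 1, and positive in 1, which raised values to the highest negative control.

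The 316 genes called, 241 higher and 75 lower, became 163 and 152 under median scaling and 153 and 181 under quantile normalization. Positive control scaling gave 95 genes, and leaving out single tumors 268 to 334. Under positive control scaling the called genes were also 1 NK cell, 0 *Slc7a11*-related, 1 T cell, 2 arginase axis, 0 dendritic, 1 endothelial, 2 fibroblast, 0 receptor and adaptor, 1 factor and kinase, 2 interferon gamma response, 2 leukocyte, 0 macrophage, 0 mast cell, 1 neutrophil and 1 oxidant and prostaglandin gene. Under median scaling they were 2 arginase axis, 3 dendritic, 7 endothelial, 3 receptor and adaptor and 2 mast cell genes, and under quantile normalization 3 dendritic, 7 endothelial, 8 factor and kinase (3 of them lower), 3 leukocyte and 3 mast cell genes. The mean filter of 20 and the raising of values to 20 each left 0 B cell genes and 1 melanoma-associated gene, and the raising 0 mast cell genes. Raising to the negative control left 0 mast cell and 1 melanoma-associated gene, and the methods' equal variance test 0 mast cell genes. The cause of these moves was not tested. With single tumors left out the count was 2 to 5 for the arginase axis, 0 to 1 for mast cells, 1 to 2 for B cells and 2 to 4 for neutrophils, with the highest value of the last 2 without KO6.

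Replicate numbers occur in both genotypes for 8 tumors. Deviations of same-numbered tumors correlated by 0.05 to 0.49, and 6 of the 8 tumors correlated best with their own number. Since not every pair exceeded 0.1 (number 2 did not) and the labels tie no number to a shared litter or day, the numbers were not taken as pairs. With the replicate block, 235 genes were called, against 232 in the same 8 tumors without it. The block left 2 arginase axis, 0 dendritic, 3 receptor and adaptor and 0 mast cell genes, and the 8 tumors without it 2 arginase axis, 3 T cell and 0 mast cell genes. Levels near the negative controls limit what *Ido1*, *Arg2* and *Tdo2* can show.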
